A study of Drosophila melanogaster with 2 samples.

Results

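The spliceosome removes introns from messenger RNA precursors, and a list of genes named for its protein subunits was examined here for CG11247 peaks at their promoters. Of 35 names of spliceosome protein genes, 32 were found as gene symbols in the Ensembl annotation of the dm6 genome, among 13945 protein-coding genes on arms 2L, 2R, 3L, 3R, 4 and X. SmG, LSm4 and CypE were not found as symbols and are not counted below. The data are chromatin immunoprecipitation followed by sequencing (ChIP-seq), in which an antibody against green fluorescent protein (GFP) pulled down chromatin of whole Drosophila melanogaster embryos aged 0 to 24 h. There was 1 group of 2 biological replicates, both from transgenic flies of the strain CG11247-GFP, whose insertion makes a fusion of CG11247, a zinc finger protein, with enhanced GFP. The material was the whole organism, so no cell type can be assigned to a peak, and peaks show where the tagged fusion was pulled down, not the untagged protein. The control experiment was not analysed here, so binding of CG11247 and signal that does not depend on it cannot be told apart at any promoter below.

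Introns are recognised by small nuclear ribonucleoproteins (snRNPs), each built of a small nuclear RNA, a ring of Sm or LSm proteins and proteins of its own. The U1 particle marks the 5′ splice site, the U2 particle with the factor U2AF marks the branch point and the 3′ splice site, and the tri-snRNP of U4, U6 and U5 then joins with the Prp19 complex to form the active enzyme. These genes are used in nearly every cell, and housekeeping genes of flies are often found head to head with a neighbour that is read in the other direction.

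A promoter was called bound when the summit of a passing peak, one that met the limit of the irreproducible discovery rate (IDR, a measure of how well peak ranks repeat), lay within 500 bp of a transcription start site of the gene. Peaks of the longer ranked lists, from which the passing ones were taken, served as the record of weaker signal. Pooled reads of both replicates gave 4495 passing peaks among 137752 ranked ones. Replicate 1 had 3010 passing peaks among 109282, and replicate 2 had 2695 among 125735. Signal is the score of the authors' peak caller and is compared only within a list. With a single group and no contrast, no test over samples was possible, so shares are given beside those of all genes, with Wilson 95% intervals that cover counting error only.

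CG11247 peaks passed at the promoters of 6 of the 32 spliceosome genes, or 18.8% (8.89 to 35.3%), beside 18.6% of all protein-coding genes. The share of spliceosome genes was thus that of the background. The bound genes were snRNP-U1-C and snRNP-U1-70K of the U1 particle, Sf3b6 and Sf3b3 of the U2 particle, SmD3 of the Sm ring and LSm1. LSm1 is counted because it was on the list, although its product belongs to the cytoplasmic LSm ring described below. Of these 32 genes, none of the tri-snRNP or of the Prp19 complex and its step factors was bound in the pooled list. Further genes of those particles, described below, were bound. The groups by particle held 3 to 11 genes each, and their counts below were not tested against the 18.6% of all genes. Upstream sequences of 3 bound genes are printed first, on the strand of the gene and without any annotated exon. They were taken from the RefSeq copy of the Release 6 assembly, which is dm6. Capitals mark every match, on either strand, to 8 sites sought: TATCGATA (DNA replication-related element), CGATA (short BEAF-32 site, which lies inside it), GGTCACAC (core of Motif 1), CANCNCTA (Motif 7), AGNNGGCGC (core of the CTCF site), CAGCTG (E-box), TATAAA (the usual form of a TATA box) and GAGAG (the site of the GAGA factor). These are chr3R:18983651-18983925 upstream of snRNP-U1-C, chr3L:6193180-6193440 upstream of Sf3b6 and chr3L:833386-833496 upstream of Sf3b3, each on the minus strand and ending 1 bp before the start site.
snRNP-U1-C: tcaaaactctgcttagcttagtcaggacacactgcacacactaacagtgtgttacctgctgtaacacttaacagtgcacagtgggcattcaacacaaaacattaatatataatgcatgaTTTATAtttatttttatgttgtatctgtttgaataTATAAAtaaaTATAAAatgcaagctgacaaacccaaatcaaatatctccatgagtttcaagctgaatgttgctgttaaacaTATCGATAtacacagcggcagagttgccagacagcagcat
Sf3b6: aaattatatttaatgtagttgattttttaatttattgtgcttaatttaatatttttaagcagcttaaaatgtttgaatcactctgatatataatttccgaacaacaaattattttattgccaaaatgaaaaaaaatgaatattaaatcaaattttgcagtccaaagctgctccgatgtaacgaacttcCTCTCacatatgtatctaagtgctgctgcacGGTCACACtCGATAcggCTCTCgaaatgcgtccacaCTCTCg
Sf3b3: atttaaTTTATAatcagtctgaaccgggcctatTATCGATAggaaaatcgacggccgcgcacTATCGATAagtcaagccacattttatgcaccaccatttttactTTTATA

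The capitals near the right end of snRNP-U1-C are a TATCGATA that begins 40 bp upstream of the start, 86 bp from the summit, while the TATAAA copies that begin 5 and 15 bp from the summit are the closest matches to it. In Sf3b6 a GGTCACAC began 42 bp upstream and a CGATA followed at 33 bp. Sf3b3 held 2 copies of TATCGATA, beginning 78 and 49 bp upstream of its start, and its summit lies outside the printed stretch, in the first exon. A match is a string of letters and was not tested as a site.

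The stretch around the snRNP-U1-70K summit, at chr2L:6971779-6972077 on the minus strand, is shown because TATAAA was the only site matched in it, and that around the Bx42 summit, at chrX:9106848-9107068 on the minus strand, because its peak passed in 1 replicate only.
snRNP-U1-70K: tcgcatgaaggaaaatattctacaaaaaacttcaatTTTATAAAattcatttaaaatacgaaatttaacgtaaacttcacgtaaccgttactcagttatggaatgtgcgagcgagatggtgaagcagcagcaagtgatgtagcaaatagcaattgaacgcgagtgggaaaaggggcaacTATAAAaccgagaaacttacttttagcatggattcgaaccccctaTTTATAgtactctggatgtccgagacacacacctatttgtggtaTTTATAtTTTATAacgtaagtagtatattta
Bx42: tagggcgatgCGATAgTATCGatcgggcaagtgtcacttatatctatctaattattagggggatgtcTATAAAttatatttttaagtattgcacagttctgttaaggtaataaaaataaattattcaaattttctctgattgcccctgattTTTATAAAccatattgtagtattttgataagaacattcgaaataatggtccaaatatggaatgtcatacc

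The TATAAA nearest the snRNP-U1-70K summit began 30 bp from it. The printed stretch ends 42 bp upstream of the start, and a GGTCACAC lies outside it, within the window of 250 bp before to 50 bp after the start. In the Bx42 window, which ends 244 bp upstream of the start, matches to CGATA, 1 on each strand, began 61 and 55 bp from the summit. Matches to TATAAA began 4, 80 and 82 bp from that summit. A CANCNCTA within 100 bp of the summit is not contained in the printed stretch.

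Of the U1 particle, 2 of 3 genes were bound in the pooled list, beside 18.6% of all genes. In replicate 1 and in the conservative list 1 of 3 was, beside 14.0% and 17.3% of all genes. The strongest peak of all 32 genes was at snRNP-U1-C (FBgn0261792), whose product helps U1 to hold the 5′ splice site. The pooled signal was 234.0, with signals of 144.2 in replicate 1 and 104.6 in replicate 2, and the peak spanned chr3R:18983604-18983947 with the summit 126 bp upstream of the start. That placed it in the top 0.614% of pooled ranked peaks, the top 0.626% in replicate 1 and the top 0.717% in replicate 2. It passed in both replicates' own lists, with nearly the same place in each.

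The gene snRNP-U1-70K (FBgn0016978), which encodes the protein that grips the first stem-loop of U1 RNA, had a weaker peak. The pooled signal was 83.8 at chr2L:6971756-6972099, with the summit 191 bp upstream, and the −log10 IDR was 2.04, just past the limit of 2. Ranked on the replicates themselves, the −log10 IDR of this peak was only 0.425. Its signal was 21.9 in replicate 1, in the top 30.1% of that list, and 54.0 in replicate 2, in the top 2.13%. The peak passed in replicate 2 and not in replicate 1, so the call was lost without replicate 2. It was the only member with a passing summit inside the gene more than 500 bp from a start, of signal 72.2 and 955 bp downstream (chr2L:6970610-6970953). The remaining U1 gene, snf, encodes an RNA-binding protein that is part of both the U1 and the U2 particle. Its summit, 93 bp upstream, had a pooled signal of 49.0, with 21.6 in replicate 1 and 35.3 in replicate 2, and passed in no list.

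**Figure D1:**
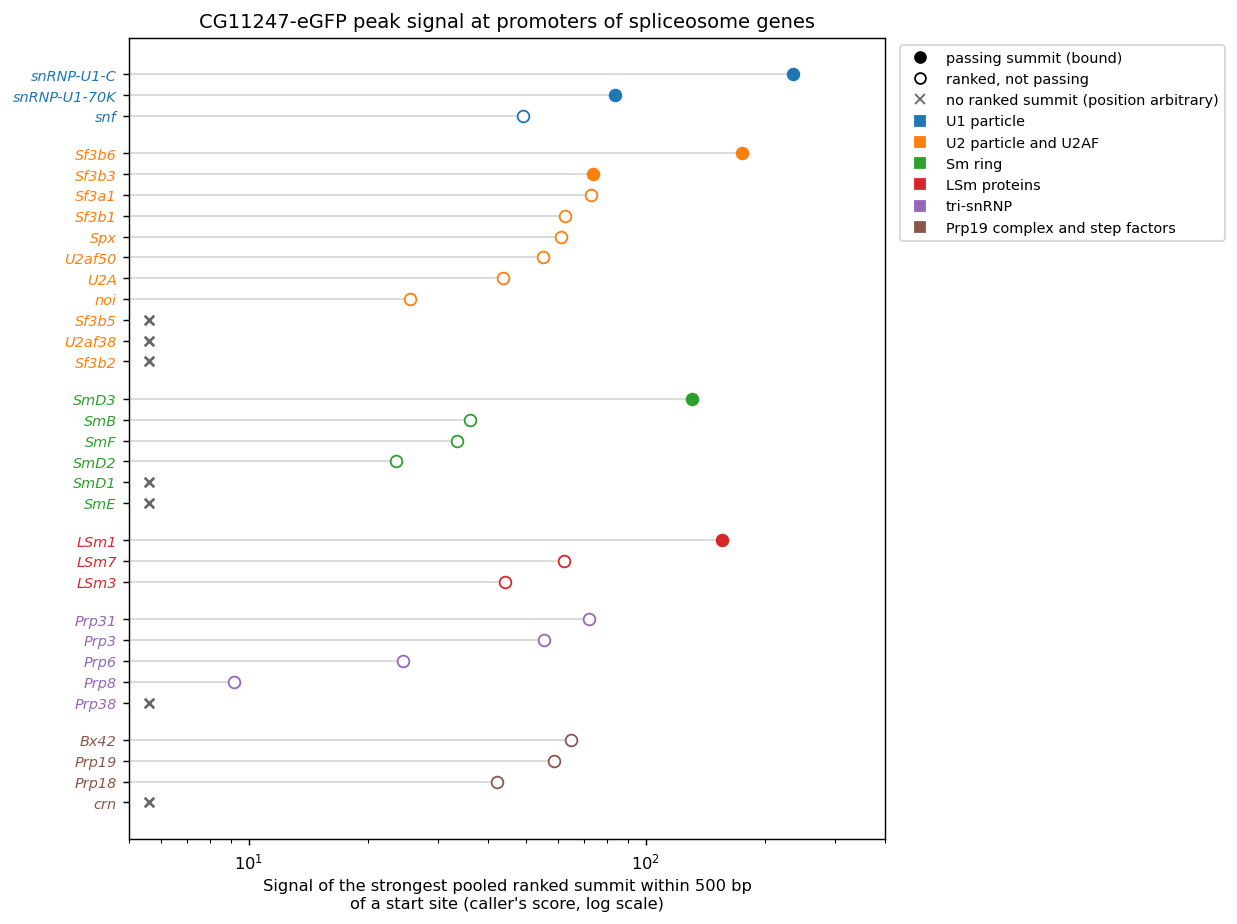
Signal of the strongest pooled ranked summit within 500 bp of a start site (caller's score, log axis) for the 32 spliceosome genes, grouped by particle. The 6 filled points are passing summits, from 73.6 at Sf3b3 to 234.0 at snRNP-U1-C, open points are ranked summits that did not pass, and the 7 crosses mark genes with no ranked summit, drawn at an arbitrary place.

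Among the 11 genes of the U2 particle and U2AF, 2 were bound, beside 18.6% of all genes. Both belong to SF3b, the part of U2 that holds the branch point. Sf3b6 (FBgn0035692), whose product lies beside the branch point adenosine, had a pooled signal of 174.8 at chr3L:6193119-6193462, with the summit 112 bp upstream. Its signal was 108.1 in replicate 1 and 57.9 in replicate 2, in the top 1.03% and the top 1.90% of those lists. Both replicates' own lists held it as passing. A weaker passing summit of signal 26.1 lay 312 bp upstream in the same stretch, within the first exon of the neighbour Tnpo.

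Sf3b3 (FBgn0035162), a scaffold subunit of SF3b, was the member just inside the limit. Its pooled signal was 73.6 at chr3L:833175-833518, with the summit 38 bp downstream of the start, inside exon 1, and a −log10 IDR of 2.01. Ranked on the replicates themselves, the −log10 IDR of this peak was 1.62, below the limit. Replicate 1 gave 30.6, in the top 11.9%, and replicate 2 gave 49.8, in the top 2.49%, and the peak passed in replicate 2 only. Of the 6 bound members it was the only one with its strongest summit downstream of the start. The peak overlapped the small nucleolar RNA gene snoRNA:Psi18S-1086 (chr3L:833062-833209), which lay 138 bp from the summit, and a second passing summit of signal 23.2 lay 162 bp upstream of the start.

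Of the genes not bound, Sf3a1, of the SF3a part of U2, had the highest pooled signal, 72.7 at 40 bp upstream, with a −log10 IDR of 0.73, well below the limit. Replicate 2 had a signal of 44.0 there, and replicate 1 had no ranked summit. Sf3b1, the subunit that clamps the branch helix, had a pooled signal of 62.5 at 124 bp upstream, with 35.2 in replicate 1 and 31.4 in replicate 2. Sf3a1 and Sf3b3 differed by less than 1 unit of pooled signal, and it was in −log10 IDR that they stood apart. The other U2 genes with a ranked summit were Spx (61.3), U2af50 (55.0), which encodes the U2AF subunit that reads the polypyrimidine tract, U2A (43.6) and noi (25.4), which encodes an SF3a subunit. Sf3b5, Sf3b2 and U2af38, the gene of the U2AF subunit that reads the end of the intron, had no pooled ranked summit within 500 bp. In replicate 2 alone, U2af38 had a signal of 22.7 and Sf3b2 of 24.4, neither passing.

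The Sm ring, which encircles the U1, U2, U4 and U5 RNAs, had 1 bound gene of 6, beside 18.6% of all genes. SmD3 (FBgn0023167) had a pooled signal of 130.8 at chr2R:12168492-12168835, with the summit 67 bp upstream. Its signal was 37.0 in replicate 1, in the top 6.54%, and 73.5 in replicate 2, in the top 1.27%, and the peak passed in replicate 2 and in the conservative list but not in replicate 1. Its −log10 IDR was 2.19. Far lower signals were found at SmB (36.1), SmF (33.5) and SmD2 (23.5), and SmD1 and SmE had no pooled ranked summit. The nearest ranked summit to SmD1 was 12761 bp away. Subunits that stand side by side in the same ring thus had promoters that ranged from a top 1.52% peak to none.

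Of the 3 LSm genes found by symbol, LSm1 was bound, beside 18.6% of all genes. LSm1 (FBgn0261067) belongs to the cytoplasmic LSm ring that promotes removal of the messenger RNA cap, whereas LSm3 and LSm7 belong also to the ring on U6 RNA. Its pooled signal was 155.3 at chr2R:21170698-21171041, with the summit 198 bp upstream, and it passed in both replicates with signals of 97.2 in replicate 1 and 64.7 in replicate 2. The summit lay 131 bp from the start of Xpd, which encodes a helicase of the transcription factor TFIIH, and thus nearer to Xpd than to LSm1. Counting each peak for its nearest start only ended the LSm1 call. LSm7 had a pooled signal of 62.2 at 64 bp upstream, with 47.2 in replicate 1 and no ranked summit in replicate 2, and LSm3 had a pooled signal of 44.2.

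None of the 5 listed tri-snRNP genes was bound in the pooled list, beside 18.6% of all genes. Prp31, whose product joins the U4 and U6 side to U5, came closest to the limit of all members that did not pass, with a pooled signal of 72 at chr3L:15158700-15159043, the summit 228 bp upstream and a −log10 IDR of 1.80. Ranked on the replicates themselves its −log10 IDR was 2.13, so that it passed in the conservative list, which rests on that ranking. Its signals were 36.2 in replicate 1 and 49.8 in replicate 2, and it passed in neither replicate's own list. Prp3 had 55.5, Prp6 24.5 and Prp8, the gene of the large protein at the catalytic centre, 9.15, the lowest of the 25 genes with a ranked summit. Prp38 had none within 500 bp, and its nearest ranked summit was 626 bp away.

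Among the 4 genes of the Prp19 complex and the step factors, Bx42, the fly counterpart of the splicing coactivator SKIP, passed in replicate 1 only. Its pooled signal was 64.9 at chrX:9106825-9107168, with the summit 393 bp upstream and a −log10 IDR of 1.26. In replicate 1 the signal was 52.3, in the top 3.02%, with a −log10 IDR of 2.09, and in replicate 2 the strongest summit was elsewhere, 77 bp upstream with a signal of 22.9. Replicate 2 also had a summit of signal 15.8 at 424 bp upstream. The pooled summit lay 72 bp from the start of Arfrp1, which encodes a small GTPase. Prp19, the ubiquitin ligase of the complex, had a pooled signal of 58.6 and a −log10 IDR of 1.53, and Prp18, a factor of the second step of splicing, had 42.3. The remaining gene, crn, had no pooled ranked summit and a signal of 7.14 in replicate 2 alone.

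**Figure D2:**
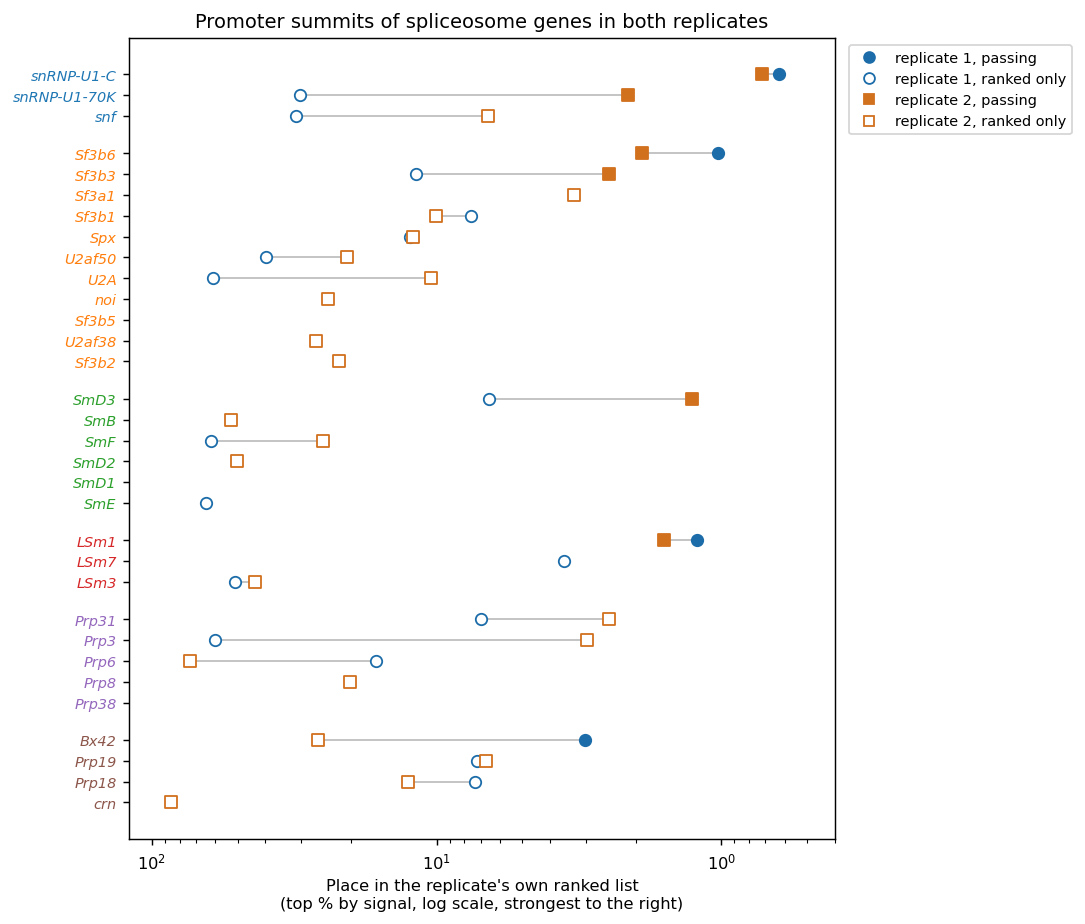
Place of the strongest promoter summit of each spliceosome gene in the ranked list of replicate 1 (circles) and replicate 2 (squares), as top % by signal on a log axis with the strongest to the right; filled symbols are passing summits and a line joins both replicates of a gene. snRNP-U1-C, Sf3b6 and LSm1 are filled in both, snRNP-U1-70K, Sf3b3 and SmD3 in replicate 2 only, and Bx42 in replicate 1 only.

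The calls with the 3 highest pooled signals were shared by both replicates. In replicate 1, 4 of 32 genes passed, or 12.5%, beside 14.0% of all genes. In replicate 2, 6 of 32 passed, the same 6 as in the pooled list, beside 13.6% of all genes. snRNP-U1-C, Sf3b6 and LSm1 passed in both, which was 3 of 32, beside 10.8% of all genes. In the conservative list 5 of 32 passed, or 15.6%, beside 17.3% of all genes, with Prp31 in and Sf3b3 and snRNP-U1-70K out. Those that changed sides had −log10 IDR values of 1.26 to 2.19 in the pooled list.

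Weak signal was the rule at the other promoters. A ranked summit, passing or not, lay within 500 bp at 25 of 32 spliceosome genes, or 78.1%, beside 78.6% of all genes. Among the genes with such a summit, 6 of 25 were bound, or 24% (11.5 to 43.4%), beside 23.7% of all such genes. The median signal of the strongest ranked summit was 58.6 at the 25 spliceosome genes, against 45.9 at 10966 genes of all kinds. The spliceosome summits were thus slightly higher in the middle of their range, and 8 of 25 (32%) were in the top 5% of the list, against 29.4% of all genes. In replicate 1 the median was 30.6 at spliceosome genes against 26.3 at all genes, and in replicate 2 it was 29.7 at spliceosome genes against 26.3 at all genes. The median passing signal was 143.0 at the 6 bound members, close to the 150.4 at all 2599 bound genes.

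The 19 members with a ranked but no passing summit had pooled signals of 9.15 to 72.7, with a median of 49.0. The 7 without a ranked summit were Sf3b5, SmD1, Prp38, crn, U2af38, SmE and Sf3b2, and the nearest ranked summit was 551 bp (Sf3b2) to 12761 bp (SmD1) away. Their nearest passing summits lay 1157 bp (Sf3b5) to 53106 bp (SmD1) away. Of these 7, Prp38, crn, U2af38 and Sf3b2 had their nearest ranked summit 551 to 626 bp away, just beyond the limit of distance.

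Summits at spliceosome genes lay mostly upstream of the start. Of the 25 strongest ranked summits, 18 were upstream (72%), against 52.3% at all genes, with a median offset of -93 bp against -15 bp. Among these 18 were all 8 summits nearer the start of a neighbour within 500 bp read in the other direction. Such neighbours were found for 71.9% of spliceosome genes against 27.4% of all genes, as described below. Whether the upstream excess goes with these neighbours was not tested. In replicate 1, 15 of 21 were upstream (71.4%), against 54.4% at all genes. The excess was smaller in replicate 2, with 16 of 27 (59.3%) against 52.2%. Of the bound members, 5 of 6 were upstream (83.3%), against 84.5% of all bound genes, with a median offset of -119 bp against -113 bp. Bound spliceosome genes thus had their peaks where bound genes in general had them.

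Most spliceosome genes shared their promoter with a neighbour read in the other direction. A partner on the opposite strand that started within 500 bp upstream, called divergent here, was found for 23 of 32 spliceosome genes, or 71.9% (54.6 to 84.4%), against 27.4% of all genes. The starts of the pairs were 42 to 465 bp apart, with a median of 259 bp. Among the partners were Mi-2, the remodelling ATPase, 85 bp from Prp3, Cdk7, a kinase of TFIIH, 259 bp from snf, Vha26, a proton pump subunit, 304 bp from noi, and shrb, 42 bp from Prp38.

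Over all genes divergent promoters were bound at a higher share than the others. Among the few spliceosome genes, the order of the shares with and without a partner changed with the list. Of the divergent spliceosome genes 4 of 23 were bound, or 17.4% (6.98 to 37.1%), beside 35.9% of all divergent genes. Of those without a divergent partner 2 of 9 were bound, or 22.2% (6.32 to 54.7%), beside 12% of all such genes (1230 of 10130). In replicate 1 the counts were 4 of 23, beside 28% of all divergent genes, and 0 of 9, beside 8.69% of the others. In replicate 2 they were 4 of 23, beside 26.5%, and 2 of 9, beside 8.69%. The divergent share was below that of all divergent genes in both replicates, but the intervals are wide and the interval of the 4 of 23 includes 35.9%. A shared promoter with 1 summit counts for both genes of a pair, so genes of a pair are not separate observations in the share of all genes.

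**Figure D3:**
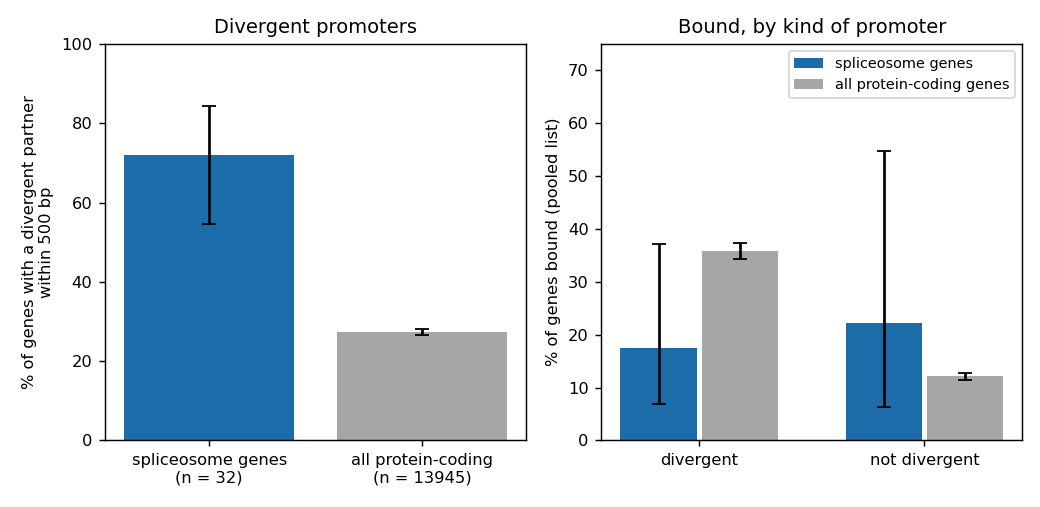
Left, percentage of the 32 spliceosome genes and of all 13945 protein-coding genes that had a divergent partner within 500 bp; right, percentage of each that was bound in the pooled list, split by kind of promoter. Bars start at 0 and error bars are Wilson 95% intervals; 71.9% of spliceosome genes were divergent against 27.4% of all genes, while 17.4% of the divergent ones were bound against 35.9%.

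At the 4 bound divergent pairs the summit lay between the starts. The partners were gukh, which encodes a synaptic scaffold protein, for snRNP-U1-C, Tnpo, a nuclear import receptor gene, for Sf3b6, Oda, the gene of ornithine decarboxylase antizyme, for SmD3, and Xpd for LSm1. The summit was 126 bp from snRNP-U1-C and 249 bp from gukh, 112 bp from Sf3b6 and 189 bp from Tnpo, and 67 bp from SmD3 and 176 bp from Oda. It was thus nearer the spliceosome gene at these 3 pairs and nearer the partner only at LSm1. Over the 17 divergent members with a ranked summit, the strongest summit was nearer the spliceosome gene in 9 and nearer the partner in 8, namely noi, Prp6, Prp3, LSm1, Spx, Bx42, Sf3b1 and SmB. At noi it was 298 bp from noi and 6 bp from Vha26, and at Prp6 it was 424 bp from Prp6 and 18 bp from CSN1b. Which gene of a pair a peak belongs to cannot be told apart from these data.

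**Figure D4:**
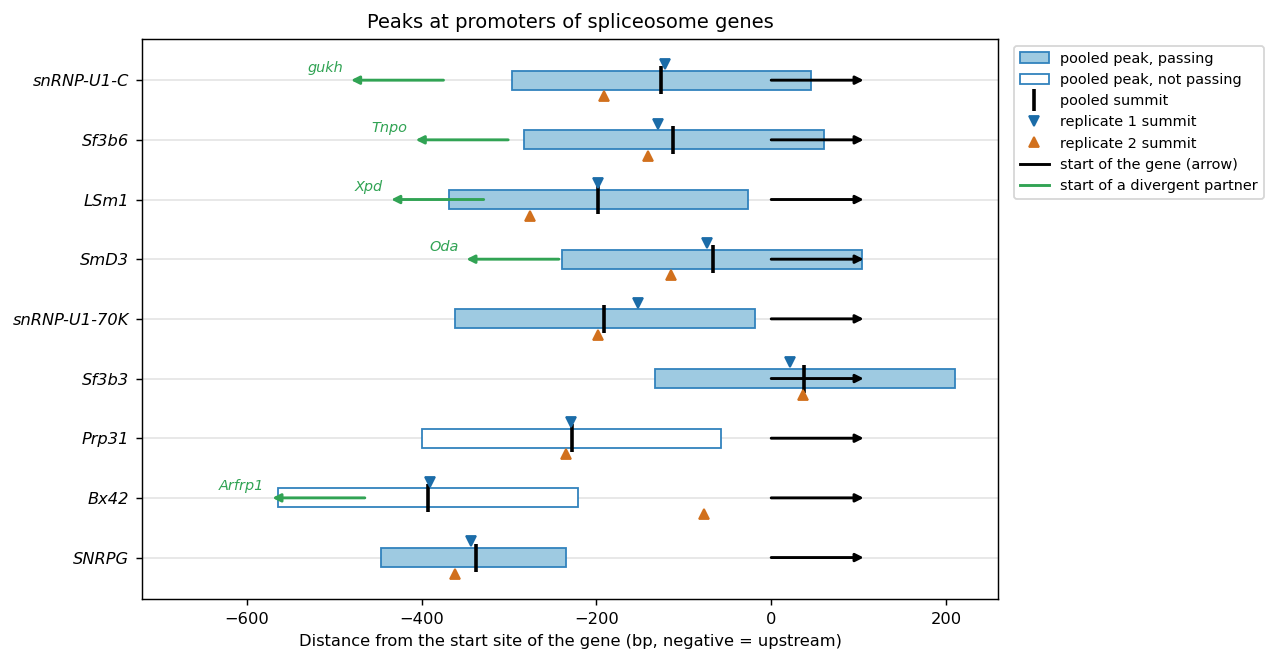
Pooled peaks (bars), pooled summits (black ticks) and replicate summits (triangles) at the 6 bound promoters, at Prp31 and Bx42, which passed in other lists, and at SNRPG, against distance from the start of the gene in bp. Arrows show the direction of reading, green for a divergent partner; in 5 of the 6 bound genes the pooled summit is upstream of the start, by 67 to 198 bp, and in Sf3b3 it is 38 bp downstream.

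Elements of housekeeping promoters were found at higher shares of spliceosome genes than of all genes. Between 250 bp before and 50 bp after the start, TATCGATA was present in 11 of 32 spliceosome genes, or 34.4%, against 9.37% of all genes, and GGTCACAC in 8, or 25%, against 7.71%. CGATA was in 24 (75%) against 47.5%, and CANCNCTA in 10 (31.2%) against 15.6%. GAGAG went the other way, in 4 (12.5%) against 29.8%. AGNNGGCGC, in 1 (3.12%) against 2.83%, CAGCTG, in 5 (15.6%) against 17.7%, and TATAAA, in 17 (53.1%) against 45.9%, lay nearer the share of all genes. Whether these shares go with the frequent divergent promoters was not tested.

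The same sites were counted in a narrower window around the summit. Within 100 bp of the strongest ranked summit, TATCGATA was in 4 of 25 spliceosome genes (16%) against 4.39% of all genes, GGTCACAC in 3 (12%) against 2.68%, CGATA in 14 (56%) against 30.7%, and GAGAG in 2 (8%) against 23.5%. CANCNCTA was in 5 (20%) against 11.1%, CAGCTG in 6 (24%) against 13.5%, TATAAA in 6 (24%) against 19.0% and AGNNGGCGC in 1 (4%) against 3.08%. For TATCGATA, CANCNCTA and GGTCACAC, members with the element were not bound at a higher share than all genes with it. Of the 11 with TATCGATA near the start, 2 were bound (18.2%), beside 27.5% of all genes with it. Of the 10 with CANCNCTA none was bound, beside 32.4% of all genes with it. Of the 8 with GGTCACAC 2 were bound (25%), beside 26.0%. LSm1, which passed in both replicates, held none of the 8 sites sought, either around its summit or near its start.

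A synonym table of RefSeq gave a gene for SmG and LSm4, which were added after the values of the others had been seen. SmG is there a synonym of SNRPG (FBgn0261791), the seventh Sm protein, but also of smg, the gene of the RNA-binding protein Smaug, so the match is uncertain. SNRPG had a higher peak than any member found by symbol, with a pooled signal of 340.9 at chrX:16640654-16640865, in the top 0.304% of ranked peaks, and signals of 187.2 in replicate 1 and 146.4 in replicate 2. It passed in both replicates and in the conservative list. Its summit was 338 bp upstream of SNRPG but 211 bp from the start of mthl1, a receptor gene read in the other direction, whose start is 549 bp from that of SNRPG. LSm4, as LSm-4 (FBgn0067622), had no ranked summit within 500 bp in any list, and CypE was not matched. With both, 7 of 34 genes were bound, or 20.6%. The peak itself, which lies between the starts of SNRPG and mthl1, is printed on the minus strand because it carried this highest signal.
SNRPG: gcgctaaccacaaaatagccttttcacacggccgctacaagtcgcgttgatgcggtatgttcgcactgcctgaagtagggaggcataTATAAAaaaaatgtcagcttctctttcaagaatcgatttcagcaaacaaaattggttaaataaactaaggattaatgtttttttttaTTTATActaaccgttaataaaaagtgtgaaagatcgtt

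Its 2 matches to TATAAA began 21 and 66 bp from the summit, and none of the other 7 sites sought was present in the printed peak.

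Other genes of splicing were compared with these. Of 35 further spliceosome genes found by symbol, of 50 tried, 8 were bound, or 22.9% (12 to 39%), again near the 18.6% of all genes. They were BCAS2 (signal 265.0), a Prp19 complex gene, Slu7 (219.8), a factor of the second step, Sf3a2 (182.1), the remaining SF3a subunit, hoip (129.6), whose product binds U4 RNA, Caper (126.5), U4-U6-60K (108.3), Prp39 (81.3) and CG6610 (64.3). The first 5 passed in both replicates. Counting each peak for its nearest start only left 3 of 35 bound, Prp39, Sf3a2 and CG6610, beside 14.0% of all genes. In the pooled list SF3a and SF3b were each bound at some subunits. Sf3a2 was bound, and Sf3a1 and noi were not. Of the genes with Sf3b in their name, Sf3b6 and Sf3b3 were bound, and Sf3b1, Sf3b2 and Sf3b5 were not. Spx, with a pooled signal of 61.3, and Phf5a, with 78.3, were not bound either.

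Genes that regulate splicing had a higher share, which moved with the number of start sites. Of 30 such genes 14 were bound, or 46.7% (30.2 to 63.9%), beside 18.6% of all genes. In replicate 1 there were 10 (beside 14.0% of all genes), in replicate 2 also 10 (beside 13.6%), and 8 passed in both (beside 10.8%). Among those with the highest signals were SRPK (236.6) and Doa (234.5), kinases of SR proteins, fl(2)d (218.3), glo (168.3), Sxl (163.5), the master gene of sex determination, SF2 (151.5), B52 (150.8) and SC35 (141.6), SR proteins, and mbl (140.2). Regulators had a median of 2 start sites and up to 9, and a summit near any start of a gene was counted. The part of start-site number in the higher share was not tested. Of the 14 regulators with 1 start 3 were bound (21.4%), beside 14.2% of all genes with 1 start, and of the 16 with several 11 were (68.8%), beside 30.8%. Of the 32 spliceosome genes 29 had 1 start, of which 6 were bound (20.7%). With only the 5′-most start of each gene, 9 of 30 regulators were bound, beside 16.6% of all genes, and the 6 spliceosome genes stayed bound. Of 3 genes found, of 5 names tried, of the exon junction complex, which splicing leaves on messenger RNA, tsu was bound, with a pooled signal of 150.3, 68.5 in replicate 1 and 77.7 in replicate 2.

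**Figure D5:**
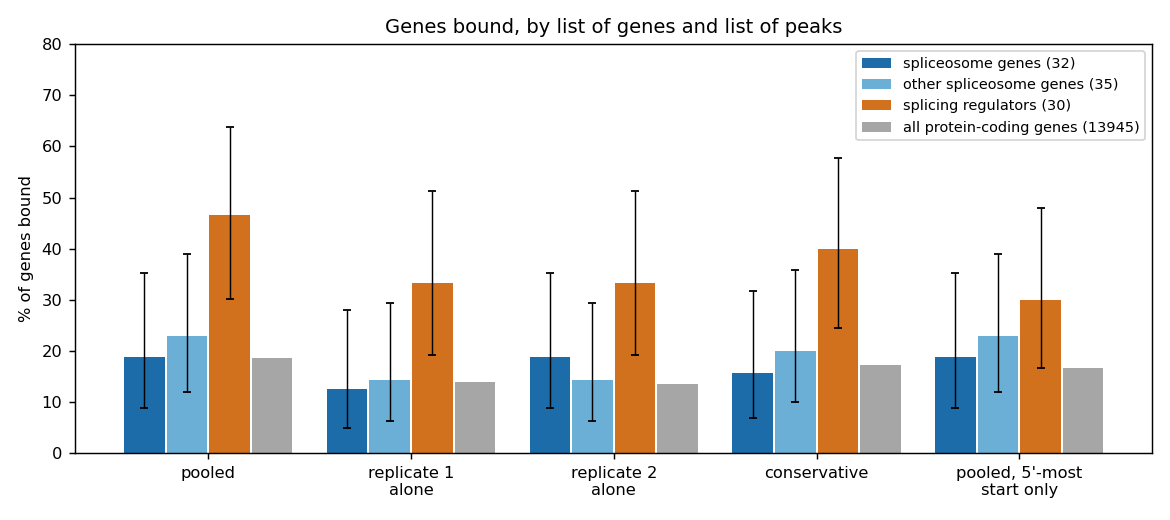
Percentage of genes bound in the pooled, replicate and conservative lists and, at the right, in the pooled list with 1 start per gene, for the 32 spliceosome genes, 35 other spliceosome genes, 30 splicing regulators and all 13945 protein-coding genes; error bars are Wilson 95% intervals of counting error. The spliceosome genes are at 18.8% against 18.6% of all genes in the pooled list, at 12.5% against 14.0% in replicate 1 and at 18.8% against 13.6% in replicate 2, while the regulators are at 46.7% in the pooled list.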

How the data were processed

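ChIP-seq with an antibody against GFP was done on 2 biological replicates of 1 group, with DNA sheared by sonication to 200 to 800 bp, per the labels. The deposited files are peak lists on dm6 for each replicate, for pooled reads and for the replicates ranked against each other (the conservative list holds the passing peaks of the last), per the listing that accompanies them. The deposited signal of a peak is a score of the authors' caller. The authors also deposited the −log10 of the global IDR in the ranked lists. All 4495 pooled passing peaks had a −log10 IDR of at least 2, and 151 ranked peaks past that limit were absent from the passing list. The aligner and caller were not given in the sources used here. Read depth is unknown, so no interval covers depth.

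The gene models were those of Ensembl release 115, and RefSeq Release 6, the same assembly, gave the sequences. A gene was bound when a passing summit lay within 500 bp of any of its protein-coding start sites. Calculations used Python 3.11.15, pandas 2.3.3, numpy 2.4.6, scipy 1.17.1 and matplotlib 3.10.9, and the calling step was checked on simulated data. All bound members and those bound in another list were described in full, as were the 5 highest of those not bound, members without a ranked summit, and up to 10 bound genes of each other list, of which 1 regulator is not reported here. Members, lists, roles and motifs were chosen with earlier results of these data known. Shares are descriptions without tests. Alternatives were other peak lists, distances of 200 and 1000 bp, the stronger 50% of peaks, peak overlap with a start, other motif windows and, chosen after seeing the data, synonyms, the nearest start only, the 5′-most start only and, for lists other than the members, peak overlap and passing in both replicates.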

Additional observations from a re-analysis of the deposited data

How the results depend on the processing

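The count of bound spliceosome genes was 6 in the pooled list, 4 without replicate 2 and 6 without replicate 1. It ran from 4 to 7 under the alternatives, the highest with synonyms, except that 3 passed in both replicates' own lists. All genes bound numbered 2599, or 18.6%, and fell to 1699 (12.2%) in the stronger 50% of peaks, 1536 (11.0%) where the peak had to overlap a start and 1511 (10.8%) in both replicates. Counts of the other lists fell too. The other spliceosome genes, 8 of 35, were 5 (14.3%) at 200 bp (13.7% of all genes), in the stronger 50%, without either replicate (14.0% and 13.6% of all genes) and in both replicates, 4 (11.4%) with overlap of a start and 3 (8.57%) with the nearest start only (14.0% of all genes). Splicing regulators, 14 of 30, were 9 (30%) in the stronger 50% and with the 5′-most start only (16.6% of all genes), and 8 (26.7%) in both replicates. Within 50 bp of the summit the share was 4% of members against 2.40% of all genes for TATCGATA, 32% against 17.6% for CGATA and 8% against 6.92% for CAGCTG. In the start-site window it was 75% of members against 47.5% for CGATA and 53.1% against 45.9% for TATAAA. The calls of snRNP-U1-70K and Sf3b3 were lost in the conservative list, the stronger 50% and without replicate 2, that of SmD3 without replicate 2, that of LSm1 with the nearest start only, and those of LSm1 and snRNP-U1-70K with overlap of a start. Prp31 was gained in the conservative list and Bx42 without replicate 2. The cause of these moves was not tested. No paired analysis was possible because the labels give 1 group only. Depth is unknown, and with 32 genes the interval of the bound share ran from 8.89 to 35.3%.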
